A study of Arabidopsis thaliana with 24 samples.

Results

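Seeds at stage 9 were compared with seeds at stage 7, both taken out of their siliques, in Arabidopsis thaliana of the accession Col-0. The comparison uses the arrays labelled with these 2 stages, 3 of stage 9 and 3 of stage 7, which are 6 of the 24 arrays of the series. The 3 arrays of stage 8 were kept out of it and are used only to see where stage 8 lies between the other 2. No mutation, transgene or treatment is labelled for any of these groups, growth conditions are labelled for stage 3 only, and the stages carry numbers without days or ages. Each sample was total RNA, labelled with biotin and read on 1 Affymetrix ATH1 array, on which groups of short probes, the probe sets, report transcripts. The values are signals made with MAS5, a linear intensity. Their trimmed mean was nearly the same on each array of stages 7, 8 and 9. A common scaling was inferred from this and is not stated, so a signal is taken as relative to the rest of its array. Whether the 3 arrays of a stage stand for separate plants is not labelled, and the p-values therefore reflect only how much these samples scatter, which could be technical.

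As a seed matures, its embryo first fills with storage proteins and with oil made from fatty acids that the plastids synthesize, while it is green and photosynthetic. Later it loses its chlorophyll, stops growing, gathers late embryogenesis abundant (LEA) proteins, which protect membranes and proteins as water leaves, and dries. Around it the seed coat, maternal tissue, lays down flavonoid pigments and mucilage before its cells die. These samples hold embryo, endosperm and coat together, so fewer cells of a type and less RNA per cell cannot be told apart in any result below.

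The arrays of a stage resembled each other closely, with correlations between 2 arrays of 0.971 to 0.988 across probe sets (probe sets are not replicates). Some properties of the arrays moved with the stage, and their part in the results was not tested. The 10 brightest probe sets held 3.27 to 4.03% of the summed signal at stage 9 and 1.75 to 1.94% at stage 7, and the median signal was 32.8 to 34.3 and 37.8 to 37.9. The control probe set for the 3' end of GAPDH, a glycolytic enzyme, read 241 to 263 at stage 9 and 1142 to 1157 at stage 7, and the 3'/5' signal ratios, a sign of RNA integrity, were 2.54 to 2.88 and 1.88 to 2.29 for ubiquitin and 4.40 to 5.94 and 8.01 to 11.9 for actin. The control for 25S ribosomal RNA stood at 108.8 to 110.5 on the stage 9 arrays and at 55.3 to 1928 at stage 7. Embryo markers were strongly read: PAP85 and AT2G28490, the 2 of 5 with a probe set, summed to 20033 to 25315 at stage 9 and 8909 to 10051 at stage 7. The 4 of 10 silique wall markers with a probe set, YAB3, SPT, ALC and ADPG1, were not at 0 and summed to 270 to 305 and 309 to 319.

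At stage 9, 10 of 11 tested genes of plastid fatty acid synthesis and all 9 tested nuclear genes of photosynthesis were called lower than at stage 7, while 21 of 31 tested LEA genes were called higher. Of 16967 tested probe sets, 1638 (9.65%) were called higher and 2633 (15.5%) lower, 4271 (25.2%) together, where a call asks for a Benjamini-Hochberg adjusted p under 0.05 in limma and a change of at least 2-fold on the log2(signal + 7) scale. Leaving the fold aside, 10979 (64.7%) passed the adjusted p. The 3 arrays of stage 9 lay all above those of stage 7 for 5459 probe sets (32.2%) and all below for 5894 (34.7%), 66.9% together. The stages did not overlap for 1630 of the 1638 probe sets called higher and 2616 of the 2633 called lower. A lack of overlap therefore adds little to a call in the genes below. Which direction has more calls depends on the scaling: after centring on 9 reference genes, which moves the median change of all probe sets from 0.00 to 0.33, 2998 were higher and 1716 lower, so higher calls made up 63.6% in place of 38.4%. The changes called higher had a median size of 1.43 on the log2 scale, and 390 of them were at least 4-fold and 60 at least 16-fold. Those called lower had a median size of 1.52, and 699 were at least 4-fold and 32 at least 16-fold. Calls with exactly 1 gene in the annotation covered 887 genes higher and 1352 lower. With 1 probe set for each of the 9307 tested genes, 9.49% of genes were higher and 14.5% lower, the shares against which the lists below are read.

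**Figure D1:**
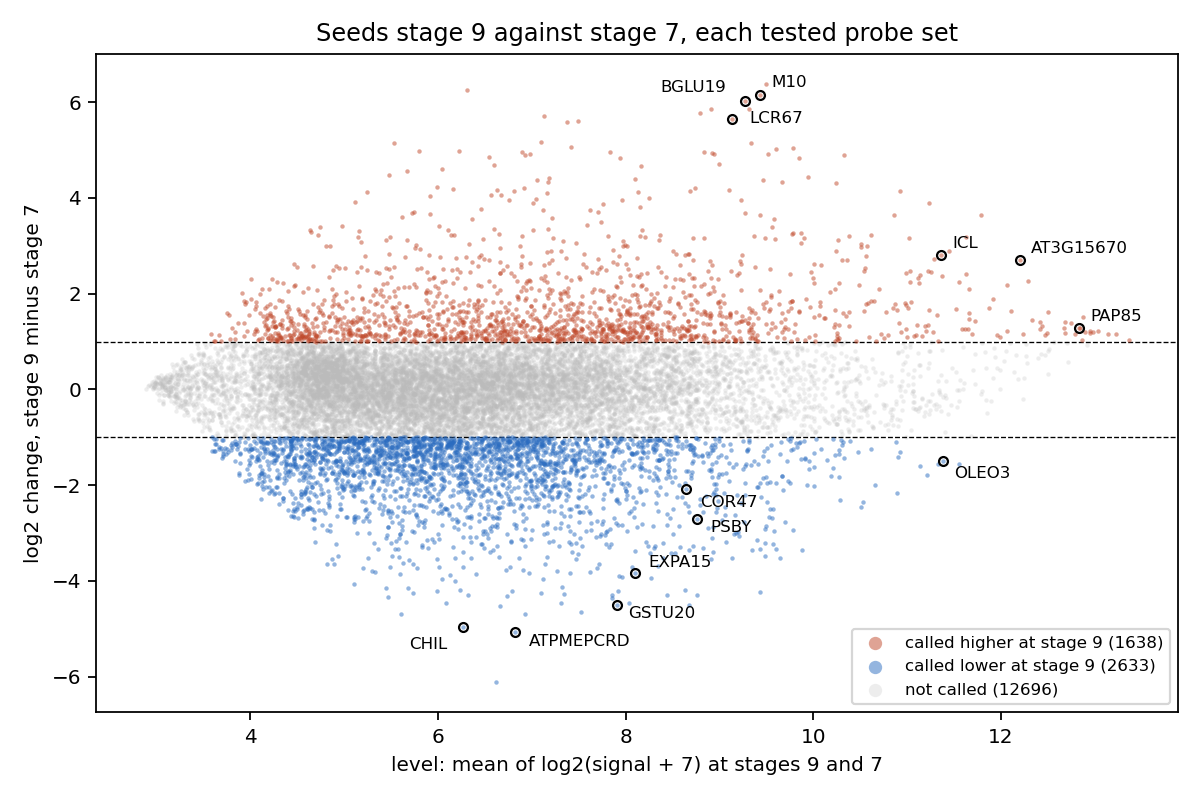
Each point is 1 of the 16967 tested probe sets, with its level (mean of log2(signal + 7) at stages 9 and 7) on the x axis and its log2 change, stage 9 minus stage 7, on the y axis; orange points are the 1638 called higher, blue the 2633 called lower, grey those not called, and dashed lines mark 2-fold. M10, BGLU19 and LCR67 lie near the top at a high level, and the lowest named points, ATPMEPCRD and CHIL, lie further left.

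The highest changes belonged to transcripts that were moderate to strong at stage 9 and weak at stage 7. The 12 highest named genes changed by 4.96 to 6.26 on the log2 scale, and 5 of them had a stage 7 mean under the 40th percentile of the arrays, so that their size depends on the offset of 7. They were chosen among called genes whose stages did not overlap, so their separation was set by the choice. AT5G54000 read 702, 695 and 670.0 at stage 9, against 2.96, 1.24 and 2.06 at stage 7. The stage 9 signals were strong and those of stage 7 near the bottom of the array, and the fitted change was 6.26 ± 0.12 (SE; adjusted p = 7.2e-23). M10, a late embryogenesis gene, gave 5584, 6193 and 5614 at stage 9, against 79.2, 66.3 and 80.7 at stage 7. It was clearly read at both stages without overlap, and rose by 6.14 ± 0.08 (adjusted p = 3.2e-25). BGLU19, for a beta-glucosidase, gave 4673, 5198 and 4996 at stage 9, against 59.5, 87.1 and 64 at stage 7, a rise of 6.02 ± 0.15. LCR67, also named plant defensin 1.1, a small cysteine-rich protein, gave 3887, 4210.2 and 3811 at stage 9, against 69.7, 74.6 and 71.8 at stage 7, a rise of 5.65 ± 0.11. For both genes each array of stage 9 lay far above each array of stage 7. AT3G53040 and AT3G22490, both on the LEA list, rose by 5.85 and 5.72. AT3G21380 rose by 5.61, and its signals were 1194, 1304 and 1254 at stage 9, against 21.1, 15.9 and 19.6 at stage 7. The others were AT4G27530 at 5.16, AT1G17010 at 5.14, AT1G08170 at 5.06, AT1G62510 at 5.02 and AT4G39130, another gene on the LEA list, at 4.96. AT1G17010 had the weakest start of the 12, with 242, 272 and 291 at stage 9, against 0.57, 0.43 and 1.4 at stage 7. By stage 8 all 12 were already called higher than at stage 7, and none was called between stages 10 and 9.

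At the other end stood transcripts of pectin, flavonoid and detoxification enzymes together with several loci that carry no name. The 12 lowest named genes, also chosen without overlap, changed by -5.08 to -4.15. Of them 8 ended with a stage 9 mean under the 40th percentile, so their size, too, depends on the offset. ATPMEPCRD, a pectin methylesterase gene, read 14.2, 4.23 and 21.2 at stage 9, against 647, 657 and 586 at stage 7. The stage 9 arrays scattered among low values, all far below stage 7, and the change was -5.08 ± 0.30 (adjusted p = 1.7e-13). CHIL, a chalcone isomerase-like protein of flavonoid synthesis, gave 6.65, 6.7 and 6.74 at stage 9, against 465, 359 and 447 at stage 7, a change of -4.97 on the log2 scale with a tight SE of 0.11. GSTU20, a glutathione transferase gene of the tau class, gave 39.8, 36.8 and 54.9 at stage 9, against 1148, 1122 and 1106 at stage 7. It stayed above the 40th percentile of signals at stage 9, and fell by 4.49. AT1G62070 remained readable as well, at 150.0, 184 and 125 at stage 9, against 3073, 2989 and 2856 at stage 7, and fell by 4.23. AT5G07030 gave 40.2, 58.8 and 48.7 at stage 9, against 862, 1059 and 1170.0 at stage 7. The stages did not overlap for either locus, as the choice of the 12 required. The remaining loci were AT1G09750 at -4.69, AT5G39130 at -4.47, AT3G54400 at -4.3, AT1G25510 at -4.25, AT1G73600 at -4.18 and AT1G26680 at -4.15. GILT, annotated as a lysosomal thiol reductase, also belongs here at -4.27 ± 0.09, but its path differed. It read 741, 724 and 653 at stage 7, 1982, 1807 and 1726 at stage 8 and 32, 28.9 and 29.2 at stage 9, so that it was highest at the stage between.

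Among LEA genes most members with a probe set of their own rose, and steeply. Of 53 genes on the list 38 had a probe set and 31 were tested, of which 21 were called higher, 5 lower and 5 not called, with a median change of 2.41 where the median of all tested genes was 0.02. The filter on low signals let a gene pass through a few high arrays, so the 31 are not all members. Besides M10, AT3G53040, AT3G22490 and AT4G39130, AT2G42560 rose by 4.89, and its signals were 6705, 7661 and 6582 at stage 9, against 275, 214 and 201 at stage 7. LEA18 gave 3517, 4028 and 3381 at stage 9, against 166, 180.5 and 175 at stage 7 and rose by 4.33. LEA4-5 gave 5881, 6665 and 6084 at stage 9, against 672, 669.7 and 717 at stage 7 and rose by 3.16. No array of stage 9 came near those of stage 7 in these 3 genes. LTI30, a dehydrin of cold and drought responses, rose by 2.71, reaching 6409, 6680.3 and 6058 at stage 9, against 1006, 841 and 1064 at stage 7. M17, also on the list, rose by 3.33 with weaker signals of 226, 198 and 211 at stage 9, against 13.9, 15.7 and 14.4 at stage 7. AT3G15670 had one of the highest signals of stage 9, at 11037, 14223 and 10970.4 at stage 9, against 1769, 1836 and 1899.6 at stage 7, and rose by 2.7. The gene named LEA rose by 1.64, but only by 0.81 and without a call under quantile normalization.

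The 5 LEA genes that fell include dehydrins and cold-regulated genes best known from vegetative tissue. COR47, a dehydrin, read 173, 199 and 192 at stage 9, against 807, 845 and 806 at stage 7. Its stages did not overlap, and it fell by 2.08 ± 0.07 (adjusted p = 8.4e-19), with stage 8 lowest of all at 86.3, 100.6 and 97.7. AT4G38410 fell by 1.92 and AT2G44060 by 1.46. COR15B and COR15A, for small proteins of the chloroplast that protect membranes in the cold, fell by 1.37 and 1.19 from signals already low, with 2.02, 0.409 and 1.49 for COR15A at stage 9, against 19.2, 9.41 and 8.72 at stage 7. An offset 4 times larger ended both calls (-0.88 and -0.46), and that of COR15A was also lost without stage 7 replicate A (-0.96) and with centring on the reference genes (-0.87).

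Of 14 storage protein genes on the list 6 were tested, with 3 called higher, 1 lower and 2 not called, and 4 of the 6 were among the bright transcripts of both stages. PAP85, a vicilin-like storage protein, read 10401, 13304 and 10677 at stage 9, against 4951, 4656 and 4408 at stage 7. All stage 9 arrays exceeded those of stage 7, and the change was 1.29 ± 0.10 (adjusted p = 2.6e-11). AT2G28490 changed by 1.16 and AT2G18540, far weaker, by 1.21 to 139, 181 and 155 at stage 9, against 71.7, 64 and 57.3 at stage 7. AT1G03890 stood just short of a call at 0.998, which leaving out stage 7 replicate A or B or stage 9 replicate A or C turned into one (at most 1.04), and AT4G36700 stood at 0.37. AT1G07750 went the other way, at 204, 245 and 259 at stage 9, against 994, 983 and 1069 at stage 7, a change of -2.08. The calls of the brightest genes depend on the scaling. With quantile normalization, which gives each array the same distribution, PAP85 stood at 0.09, AT2G28490 at -0.01, AT1G03890 at -0.01 and AT4G36700 at -0.44, none called, and 1 gene of the list remained higher. Beyond the list, 2 more of the 4 brightest genes at stage 9, AT5G59170 and AT1G04560, changed by 1.23 and 1.29, and by 0.05 and 0.11 with quantile normalization.

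The vacuolar processing enzymes, proteases that cut storage proteins into their mature chains, parted. BETA-VPE, the seed form, read 4552, 5149.6 and 4586 at stage 9, against 1985, 1985 and 1996 at stage 7. It rose by 1.25, or 0.58 without a call under quantile normalization. DELTA-VPE, known from the seed coat, gave 247, 239 and 248 at stage 9, against 693, 713 and 699 at stage 7, a change of -1.49 ± 0.07, and at stage 8 it still read 611, 776 and 681. ALPHA-VPE at -0.56 and GAMMA-VPE at 0.45, both known from vegetative organs, were not called. Oil body proteins parted as well, with 2 of 4 tested genes higher and 1 lower. AT2G25890 gave 4742, 4889.9 and 4889.7 at stage 9, against 994, 1029 and 1049.9 at stage 7 and rose by 2.23. OLEO3, an oleosin, which coats oil bodies, gave 1483, 1737 and 1573 at stage 9, against 4753, 4439.5 and 4265 at stage 7. All stage 9 arrays lay below stage 7, and it fell by 1.49 ± 0.07 (adjusted p = 1.9e-15). AT3G18570 rose by 1.12, and 0.70 without a call under quantile normalization, while AT3G01570 was not called at 0.92 and turned to -0.26 there.

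Genes that make fatty acids in the plastid fell almost throughout. Of 11 tested fatty acid synthesis genes 10 were called lower and none higher, with a median of -2.78, against 14.5% of all genes lower. AT3G02630 read 106.7, 70.2 and 76.5 at stage 9, against 1084, 1176 and 1197 at stage 7, the steepest fall of the list at -3.68 ± 0.12 (adjusted p = 7.4e-19). AT5G16240 gave 40.3, 54.1 and 52.6 at stage 9, against 485, 488 and 528 at stage 7, and AT2G22230 gave 65.1, 72.7 and 65.3 at stage 9, against 616, 621 and 563 at stage 7. In all 3 the stages were wide apart, and the last 2 fell by 3.19 and 3.02. AT4G13050 fell by 3.56, to signals of 1.41, 17.9 and 7.11 that scatter near the bottom of the array. The 2 named thioesterases, which release fatty acids from the synthesis machinery, differed: FaTA fell by 2.78 ± 0.13, at 43.4, 61.4 and 39.1 at stage 9, against 407, 352 and 337 at stage 7, whereas FATB was not called at -0.01, at 639.8, 589 and 613 at stage 9, against 673, 642 and 542 at stage 7, where the arrays of the 2 stages overlapped. The sign of FATB turned with other scalings and without single arrays, so it has no direction here. AAPT2, for an aminoalcoholphosphotransferase and the one tested gene for fatty acid modification and oil assembly, stood at -0.03.

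Of 20 genes listed for oil breakdown and the glyoxylate cycle 3 were tested, with 2 called higher and 1 not called. ICL, for isocitrate lyase of the glyoxylate cycle, by which seedlings turn oil into sugar, read 6679.6, 7769 and 6562 at stage 9, against 986, 998 and 981 at stage 7. It was among the brightest transcripts at stage 9 with no overlap, and rose by 2.81 ± 0.16 (adjusted p = 5.7e-14). SDP1, the main lipase of seed oil, gave 577, 549 and 599.7 at stage 9, against 172, 182 and 161 at stage 7 and rose by 1.71 ± 0.08. AIM1, a multifunctional enzyme of fatty acid oxidation in the peroxisome, was not called at 0.68, though its stage 9 signals of 674, 693 and 654 were all above the 378, 416 and 462 of stage 7, and it reached 1.01 and a call with centring on the reference genes.

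**Figure D2:**
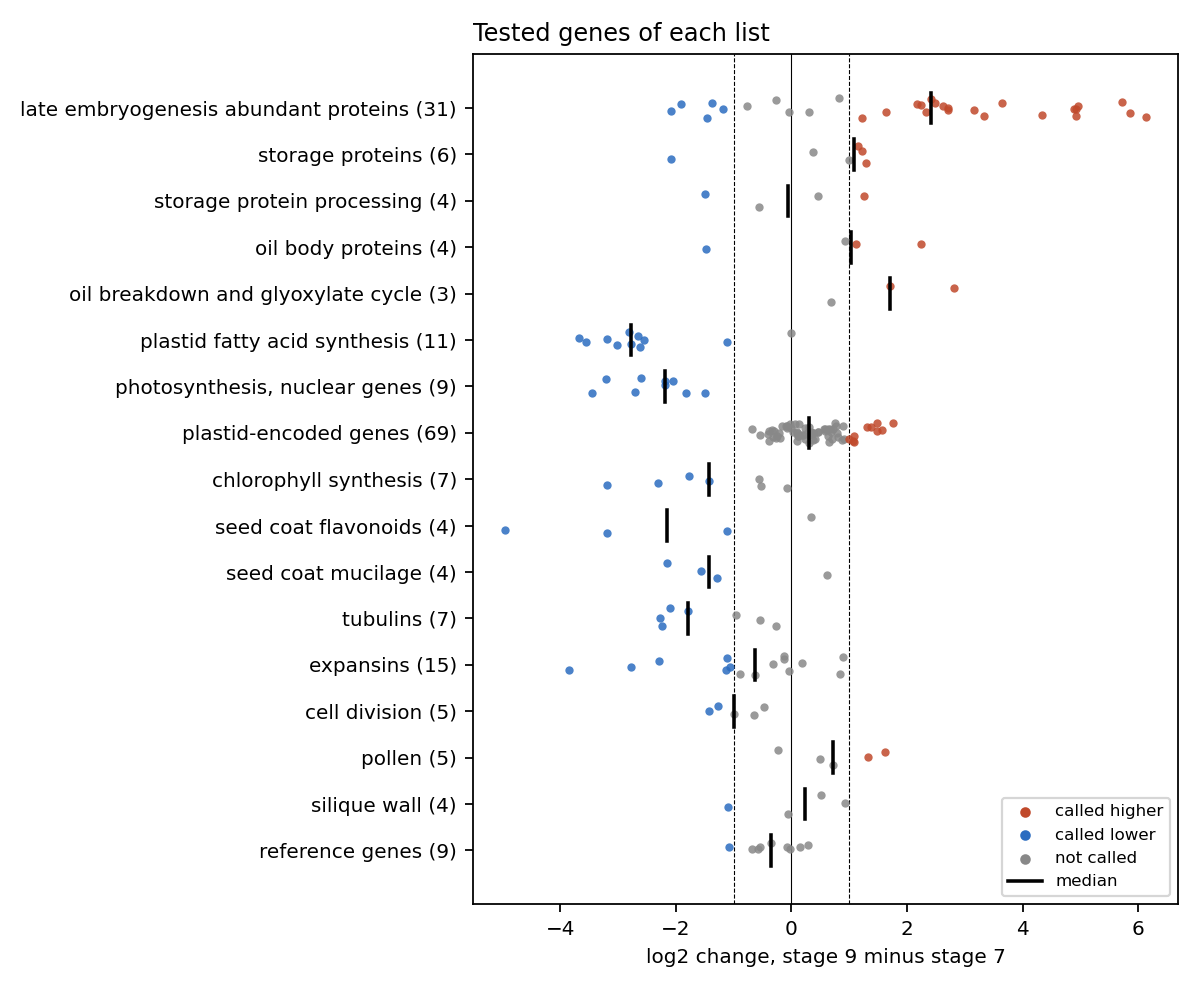
Log2 change, stage 9 minus stage 7, of each tested gene (point) in 17 lists, with the number of tested genes in brackets; orange points are called higher, blue lower, grey not called, the black bar is the list's median, and dashed lines mark 2-fold. LEA genes spread widest, from -2.08 to 6.14, and all 9 nuclear photosynthesis genes lie left of the 2-fold line while the plastid-encoded genes lie around 0 or to the right.

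All 9 tested nuclear genes of photosynthesis fell, by a median of 2.19 on the log2 scale. ATPC1, a subunit of the chloroplast ATP synthase, read 59.4, 50 and 34.6 at stage 9, against 569, 582 and 593 at stage 7, a change of -3.45 ± 0.11 (adjusted p = 1.6e-18). PSAN and PSAE-1, subunits of photosystem I, fell by 3.2 and 2.61. PSBY, of photosystem II, gave 169, 149.7 and 172 at stage 9, against 1120.2, 1084 and 1111 at stage 7 and fell by 2.71, and PSBW, of the same complex, fell by 2.05. In none of these genes did an array of stage 9 reach stage 7. The antenna genes LHCB4.3, LHCB4.2 and LHCB4.1 fell least of the 9 along with PSBW, by 2.18, 1.83 and 1.5, and LHCB4.1 still read 469, 641 and 650.1 at stage 9, against 1692, 1715 and 1563 at stage 7. RCA, which activates the carbon-fixing enzyme Rubisco, fell by 2.19. Of 7 tested chlorophyll synthesis genes 4 were lower and 3 not called. PORB, for the light-dependent reductase of protochlorophyllide, read 30.5, 27.4 and 30.4 at stage 9, against 339, 329 and 309 at stage 7 and fell by 3.19 ± 0.12. CHLM and CHLI2, which act on magnesium protoporphyrin and on magnesium insertion, fell by 2.31 and 1.77, the second without a call at -0.85 with an offset 4 times larger. HEME2, of an earlier step shared with heme, fell by 1.44, and GSA1, earlier still, was not called at -0.08, with overlapping arrays. NOL, for a chlorophyll b reductase and the one tested gene of chlorophyll breakdown, fell by 1.42 as well.

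None of the genes that the plastid genome itself encodes was called lower. They were taken as the 69 tested genes that the RefSeq gene table places on the plastid chromosome, a list drawn after the files were seen because its codes could not be matched. Of them 10 were called higher and none lower, with a median of 0.30 and a range of -0.68 to 1.76. That is 14.5% called, all of them higher, and 59 genes were not called. Of all tested genes 24.0% were called, 9.49% higher and 14.5% lower. After centring on the reference genes 20 of the plastid-encoded genes were higher. ndhF, of the NDH complex of electron transport, read 139.5, 124 and 155 at stage 9, against 33.1, 31.9 and 44 at stage 7. Its arrays did not overlap, and it rose by 1.76 ± 0.34 (adjusted p = 7.9e-05). ndhG gave 573, 561 and 389 at stage 9, against 183, 167 and 145 at stage 7 and rose by 1.57. rpoB, a subunit of the plastid RNA polymerase, rose by 1.48, and rps14, a ribosomal protein, by 1.48. petD, of the cytochrome b6f complex, rose by 1.37. psbA, for the D1 core protein of photosystem II, is a borderline call at 1.001, and it was not called without stage 7 replicate B or C or stage 9 replicate A or B (0.92 to 0.997). psaB, a core protein of photosystem I and one of the brightest of these genes, read 7297, 8626 and 7147 at stage 9, against 4741, 4422 and 4033 at stage 7, a difference of 0.80 that was not called and turned to -0.18 with quantile normalization. rbcL, the large subunit of Rubisco, was not called at -0.22, and its stage 9 signals of 245, 255 and 219 lay all below the 288, 288 and 263 of stage 7. Total RNA was labelled, and the sources used here do not give how plastid transcripts entered the labelling.

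Most tested genes of the seed coat lists fell. Of 4 tested flavonoid genes 3 fell, and of 4 mucilage genes 3 fell. CHIL was described above. BAN, for anthocyanidin reductase, which makes the precursors of the coat's tannins, read 43.6, 45.1 and 34.6 at stage 9, against 412, 430.2 and 451 at stage 7, a change of -3.19 ± 0.15 (adjusted p = 1.9e-15). DFR, of an earlier step of the same pathway, fell by 1.11, a call lost with an offset 4 times larger (-0.997) and with centring on the reference genes (-0.78). UGT80B1, a sterol glucosyltransferase on the same list, was not called at 0.34. Of the mucilage genes AT2G22900 fell by 2.16, at 68.6, 52.3 and 53.8 at stage 9, against 274, 283 and 290.1 at stage 7, and the subtilase gene ARA12, needed for mucilage release, by 1.29, at 402, 388 and 395 at stage 9, against 972, 964 and 986 at stage 7. Neither overlapped between the stages, and ARA12 stood at -0.96 and was not called with centring on the reference genes. AT3G50990 fell by 1.56 from weak signals, a call that an offset 4 times larger ended (-0.75), and AT3G10320 was not called at 0.61. The 5 coat markers BAN, DFR, ARA12, AT2G22900 and AT3G50990 summed to 607 to 643 at stage 9, against 1930 to 2053 at stage 7, with 5 of 5 called lower. They are members of the lists just described, counted again, and so no separate evidence. UGT80B1 and AT3G10320, which were not called, are not among them. SBE2.2, for a starch branching enzyme and the one tested starch gene, fell by 3.96 ± 0.22, at 22, 7.11 and 2.66 at stage 9, against 241, 245 and 233 at stage 7.

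Genes of growth fell where they changed. Of 7 tested tubulin genes, for the subunits of microtubules, 4 were lower and none higher. TUA6, an alpha tubulin, read 184, 186 and 144 at stage 9, against 829, 873 and 806 at stage 7 and fell by 2.25 ± 0.09. TUB6, TUB7 and TUB5, all beta tubulins, fell by 2.27, 2.1 and 1.8, and TUA1 was not called at -0.27. Of 15 tested expansin genes, whose proteins loosen cell walls, 6 were lower and none higher. EXPA15 gave 56.2, 68.2 and 72.5 at stage 9, against 1081, 1047 and 968 at stage 7. It stayed above the array medians of 32.8 to 34.3 at stage 9, against a strong signal at stage 7, and it fell by 3.84 ± 0.12 (adjusted p = 2.9e-19). EXPB1 fell by 2.77 and EXPA4 by 2.3. EXLA3 fell by 1.14 among the lowest signals, and lost the call with an offset 4 times larger (-0.42) and with centring on the reference genes (-0.81), settings that each left 3 expansins lower. Of 6 tested xyloglucan endotransglucosylases, which rejoin wall polymers, XTH32 fell by 2.16, while XTH18 at 0.98, XTH16 at -0.87 and XTH20 at 0.75 were not called. XTH18 reached a call without stage 7 replicate A (1.23) or stage 9 replicate C (1.49), and XTH16 at -1.17 without stage 9 replicate C. Of 5 cell division genes AUR1, an Aurora kinase, fell by 1.42 and PRL, the replication factor MCM7, by 1.27, and neither was called with an offset 4 times larger (-0.95 and -0.84). ICU2, the catalytic subunit of DNA polymerase alpha, had signals of 0.926, 6.2 and 0.708 at stage 9, against 10.9, 12.7 and 11.2 at stage 7 and was just short of a call at -0.996, reaching a call without stage 9 replicate B (-1.25) and without stage 7 replicate A or C (-1.02 and -1.01). AUR2 was not called at -0.65.

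Few regulators and markers of other cell types were called. The maturation transcription factors BZIP53 and EEL were not called, at 0.81 and 0.38, and EEL was highest at stage 8, with 831, 866 and 886 at stage 7, 1806, 1573 and 1839.7 at stage 8 and 1099, 1115 and 1149 at stage 9. Both tested gibberellin genes, the hormone receptors GID1A and GID1C, rose. GID1A read 221, 213 and 229.6 at stage 9, against 90.4, 97.5 and 97.7 at stage 7 and rose by 1.16, and GID1C rose by 1.14, a call lost without stage 9 replicate A (0.997) and with an offset 4 times larger (0.68). Of 6 tested heat shock genes AT5G37670 rose by 1.51, and ATHSP22.0 at -0.94, AT2G29500 at 0.74 and AT1G53540 at 0.34 were not called. The sugar transporters SWEET11 and SAG29, which export sucrose from the coat to the embryo, were not called at -0.31 and 0.18. The endosperm markers MPC and AT4G36590, both weak, were not called at 0.69 and 0.63, and their sums were 23.8 to 51.1 at stage 9 and 14.5 to 18.1 at stage 7. Of the silique wall genes SPT, a transcription factor of the fruit, fell by 1.1, a call lost without stage 9 replicate C (-0.98) and under 3 other scalings or offsets. ADPG1 at 0.93 (1.02 and called without stage 7 replicate B), YAB3 at 0.52 and ALC at -0.06 were not called. The guard cell markers FMA and AT1G22690 were not called at 0.50 and 0.45.

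Of 5 tested pollen genes 2 rose, and the 3 pollen markers summed to 213 to 230 at stage 9 and 64.5 to 77.2 at stage 7. That sum is carried by AT5G45880, which read 189, 179 and 166 at stage 9, against 52.8, 59.8 and 47.2 at stage 7 and rose by 1.62 ± 0.10. MGH3, a histone of sperm cells, rose by 1.32 among low signals, with 35.1, 39 and 46 at stage 9, against 8.14, 14 and 13.6 at stage 7, and an offset 4 times larger ended the call at 0.77. ANX2, a receptor kinase of the pollen tube, was near the bottom of the array at both stages, with 5.06, 1.61 and 0.639 at stage 9 and 3.56, 3.35 and 4.7 at stage 7. AT4G39110 at 0.72 and AT2G21480 at 0.49 were not called. Of 9 reference genes, published as stable on arrays of this collection and so no independent evidence, 8 were not called and the median was -0.36. AT4G33380 stood at -0.68, AT5G46630 at -0.59 and AT4G34270 at -0.55. GAPC2, a cytosolic GAPDH, read 1237, 1309 and 1304 at stage 9, against 2921, 2884 and 2440.3 at stage 7. It fell by 1.09, or 0.76 and not called with centring on the list it belongs to, and the GAPDH control probe set fell alongside.

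Gene families were also counted by the stem of their symbols, for the 23 stems with at least 8 tested genes, a grouping made after the files were seen. Of 33 UDP-glycosyltransferases (UGT), which attach sugars to small molecules, 9 were higher and 5 lower. UGT72E1 gave 309, 313 and 318 at stage 9, against 8.15, 2.0 and 9.35 at stage 7 and rose by 4.62 ± 0.17, whereas UGT78D1, which acts on flavonols, fell by 2.47. Of 14 beta-glucosidases 3 were higher, led by BGLU19, and 3 lower, among them BGLU29 at -2.5 and BGLU44 at -2.43. Of 22 serine carboxypeptidase-like genes (SCPL) 11 were lower and none higher, with scpl42 at -2.51 and SCPL45 at -2.44. Of 18 TRICHOME BIREFRINGENCE-LIKE genes (TBL), for enzymes that acetylate wall polymers, 8 were lower and none higher. TBL45 fell by 3.03 and TBL38 by 2.28, at 66.5, 52.4 and 63 at stage 9, against 307, 346 and 311 at stage 7. Of 11 glycoside hydrolases of family GH9, which act on cellulose, 6 were lower and 1 higher. GH9B8 read 24.1, 10.4 and 18.1 at stage 9, against 295, 251 and 256 at stage 7 and fell by 3.52, GH9B7 fell by 2.29, and the higher one, GH9B17, changed by 1.16 near the bottom of the array, a call that the larger offset ended (0.51). Of 10 RALF-like signalling peptides 6 were lower and none higher, with RALFL24 at -2.3 and RALFL34 at -1.99. Of 12 calmodulin-binding IQD genes 5 were lower and none higher. Among 11 tetraspanins, membrane proteins, 4 were lower, and TET4 alone was higher, at 941, 1039 and 979 at stage 9, against 131, 116 and 150.3 at stage 7, a rise of 2.84.

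Of 13 sugar transporters with the stem SWEET 3 were called higher and 10 were not called. SWEET6 read 521, 477 and 533 at stage 9, against 23.8, 18.1 and 21.3 at stage 7, far apart at the 2 stages, and rose by 4.21 ± 0.14 (adjusted p = 1.3e-18). SWEET7 rose by 1.26 and SWEET2 by 1.14, the second at 0.82 without a call with an offset 4 times larger. The gene listed as AtVEX1, whose synonym is SWEET5, is a further member of the family that the stem leaves out of that count, and it fell by 2.65, at 57.1, 64.4 and 51.5 at stage 9, against 427, 378 and 391 at stage 7. Of 8 genes with the stem ATG, for autophagy, ATG8H was called, at 1554, 1665 and 1559 at stage 9, against 229.9, 214 and 218 at stage 7, a rise of 2.81 ± 0.06.

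For the genes that changed, stage 8 lay most of the way toward stage 9. Its position was taken as the change from stage 7 to 8 divided by the change from stage 7 to 9, so that 0 is the stage 7 mean and 1 the stage 9 mean. On the log2 scale the median position was 0.847 for the 1638 probe sets called higher (quartiles 0.680 and 0.973) and 0.735 for the 2633 called lower (quartiles 0.595 and 0.874). The position was at least 0.5 for 88.8% of those called higher and 85.6% of those called lower, and past stage 9, above 1, for 338 and 292. Only 11 of the higher and 7 of the lower ones were called past stage 9 at stage 8 and called back after it. A position above 1 is thus seldom a called overshoot. Each of the 3 stage 8 arrays gave nearly the same medians, 0.842 to 0.858 for higher and 0.719 to 0.736 for lower. Which direction was nearer to stage 9 depends on the scale: on linear signals the medians were 0.742 for higher and 0.848 for lower, the opposite order. On both scales stage 8 was closer to stage 9 than to stage 7 for most changed probe sets, 80.0% of higher and 93.0% of lower ones on the linear scale. The median SE of a single position was 0.0786 for higher and 0.0856 for lower ones.

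**Figure D3:**
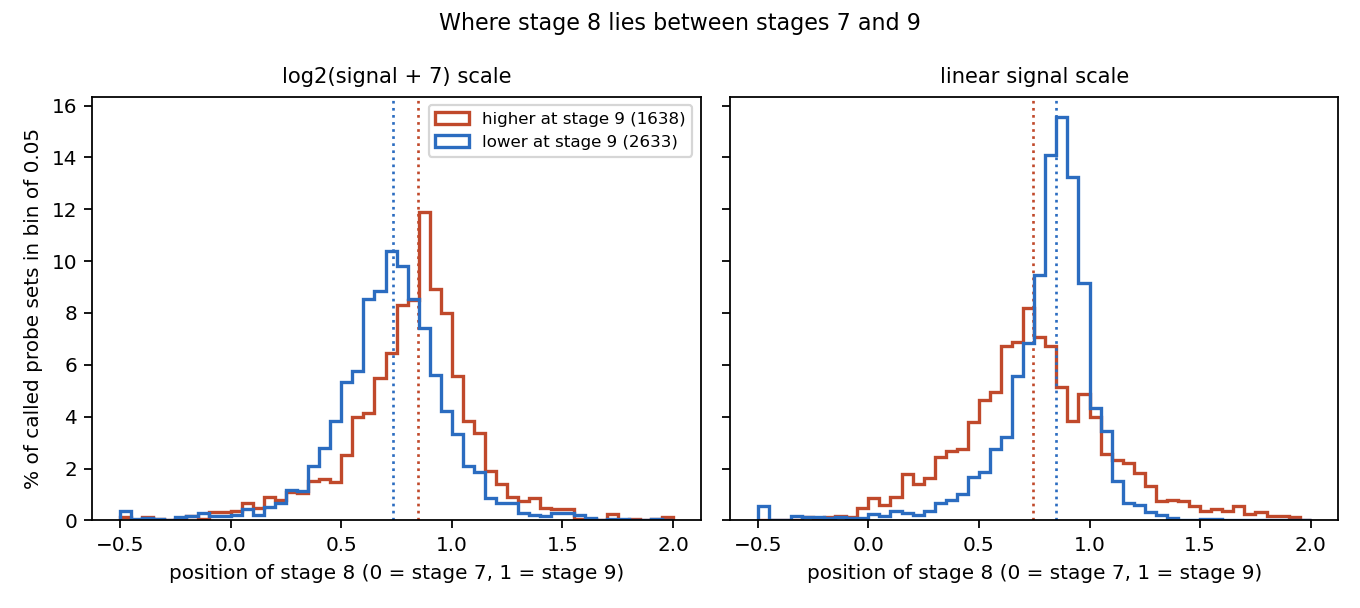
Distribution of the position of stage 8 (x axis, 0 = stage 7 mean, 1 = stage 9 mean; values outside -0.5 to 2 are drawn at the edges) over the probe sets called higher (orange, 1638) and lower (blue, 2633), as percent in bins of 0.05, with dotted lines at the medians. On the log2 scale the medians are 0.847 for higher and 0.735 for lower; on linear signals they are 0.742 and 0.848.

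The steps between neighbouring stages show the same. Stage 8 against stage 7 gave 1365 higher calls (8.05%) and 1908 lower (11.2%), while stage 9 against stage 8 gave 178 (1.05%) and 443 (2.61%). Of the 1638 higher probe sets 1054 (64.3%) were called by stage 8 and not after, 79 after stage 8 only, 24 in both steps and 470 in neither. The other 11 were called past stage 9 at stage 8 and back after it. Of the 2633 lower ones 1489 (56.6%) were called by stage 8 and not after, 113 after only, 199 in both and 819 in neither. Another 7 were called past stage 9 at stage 8 and back, and 6 were called away from stage 9 at stage 8. These steps share the stage 8 arrays and each shares arrays with the main comparison, so their counts are not separate evidence.

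Single genes left that course on both sides. Among genes that changed by at least 3 on the log2 scale, the latest rises were those of AT2G43590, AT5G66430 and M17. AT2G43590 read 1.44, 0.75 and 1.34 at stage 7, 8.99, 19.6 and 2.31 at stage 8 and 89, 93.2 and 59.5 at stage 9, a position of 0.28. AT5G66430 and M17 lay at 0.59 and 0.66. Others were higher at stage 8 than at stage 9. UGT76E12 read 1.48, 1.46 and 3.44 at stage 7, 219, 200.1 and 199 at stage 8 and 137, 140.4 and 176 at stage 9, a position of 1.11, and AT5G02580 and AT5G08240 lay at 1.16 and 1.19. Its relative UGT76E11, with a smaller change of 2.2, gave 11.1, 14.8 and 12.9 at stage 7, 158, 158 and 169.8 at stage 8 and 92.2, 74.2 and 87.3 at stage 9, whereas UGT76B1 read 2.26, 5.58 and 6.16, 2.02, 8.82 and 8.93 and 45.5, 42.6 and 33.5 at the same 3 stages and came up after stage 8. Of the genes that fell, on the same log2 scale, GILT at -0.32, AT1G21740 at 0.26 and CHIL at 0.28 went latest. CHIL still had 133, 169 and 175 at stage 8, and scpl20, with a smaller change of -1.7, was slightly higher at stage 8, with 329, 285 and 266, than at stage 7, with 244, 255 and 246. The earliest falls were those of ATPMEPCRD at 0.93, AT1G62210 at 0.92 and AT1G20950 at 0.91. AT1G62210 read 1492, 1376 and 1404 at stage 7, 176, 149 and 173 at stage 8 and 139.9, 133 and 136 at stage 9.

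**Figure D4:**
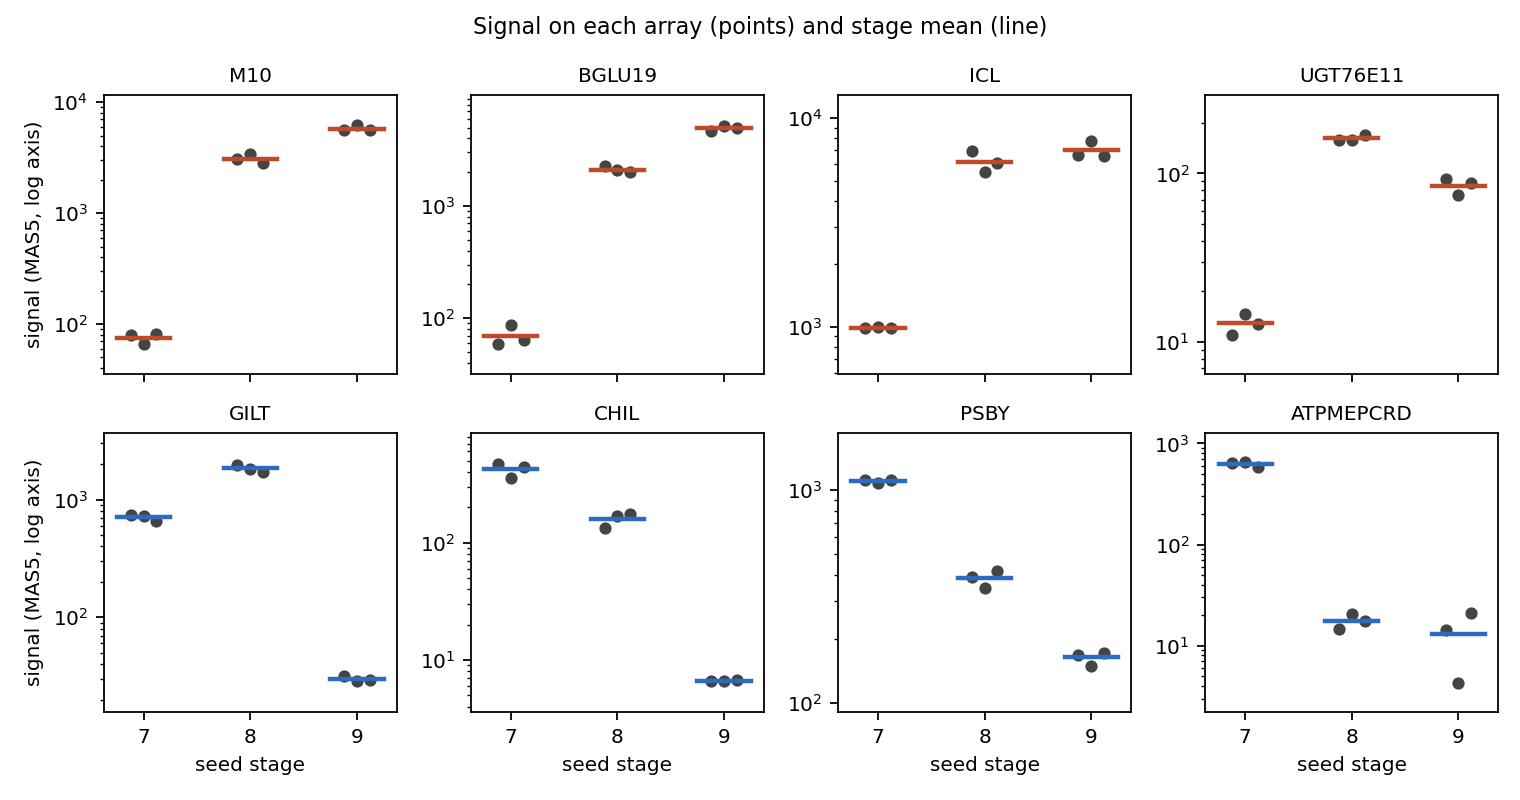
Signal of 8 genes on each array (points) at seed stages 7, 8 and 9, with the stage mean as a line, orange for genes called higher at stage 9 and blue for genes called lower, on a log axis. ICL is close to its stage 9 level at stage 8, UGT76E11 and GILT are highest at stage 8, PSBY falls in 2 steps, and ATPMEPCRD is at its low level by stage 8.

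The lists differed in where stage 8 lay, as descriptions of few genes each. On the log2 scale the median position of called members was 0.867 for LEA genes, 0.734 for storage proteins, 0.669 for plastid fatty acid synthesis, 0.613 for nuclear photosynthesis genes, 0.886 for expansins and 0.277 for seed coat flavonoids. On linear signals, computed after the data were seen, the medians were 0.736 for LEA genes, 0.745 for storage proteins, 0.859 for plastid fatty acid synthesis, 0.815 for nuclear photosynthesis genes, 0.967 for expansins and 0.56 for seed coat flavonoids, so that LEA genes lay beyond the photosynthesis and fatty acid genes on the log2 scale and short of them on the linear one. The positions of single genes that follow are on the log2 scale. BAN lay at 0.31 and DFR at 0.20, with stage 8 signals for BAN of 188, 246 and 205. ICL lay at 0.94 and SDP1 at 0.72. OLEO3, at 0.29, read 3520.1, 3177 and 3314 at stage 8, and DELTA-VPE, at 0.02, had hardly moved by then. The 10 plastid-encoded genes called higher had a median of 0.289, or 0.204 on linear signals, with ndhG at 0.20 and 214, 217 and 186 at stage 8. COR47, ARA12 and GID1A lay past stage 9, at 1.45, 1.34 and 1.19. For GID1A the arrays of stages 8 and 9 overlapped, and its change between them was -0.22 (limma adjusted p = 0.105).

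After stage 9 most of the changed probe sets were not called again, 1594 of the 1638 higher and 2532 of the 2633 lower ones. Of the 1638 higher ones 18 were called higher and 26 lower at stage 10 against 9, where 0.778% and 0.937% of all tested probe sets were, and of the 2633 lower ones 31 and 70. Each of these counts is a larger share than among all tested probe sets. That step shares the stage 9 arrays with the main comparison, and the step from stage 6 to 7 shares the stage 7 arrays. Counts from either step are therefore not separate evidence. Before stage 7, at stage 7 against 6, 204 of the higher ones were already called higher and 10 lower, where 2.42% and 1.06% of all were, and of the lower ones 45 and 70. Over the 8 groups of the series, 810 (49.5%) of the probe sets called higher had their highest mean at stage 10 and 558 (34.1%) at stage 9, where 20.9% and 11.9% of all tested probe sets had theirs. Those called lower had it in siliques of stage 3 for 892 (33.9%) and in seeds of stage 6 for 716 (27.2%), where 26.0% and 10.9% of all tested probe sets had theirs. The calls partly set these shares, since a probe set called higher cannot peak at stage 7, nor one called lower at stage 9. The shares therefore describe the called probe sets and are not separate evidence. The highest and lowest named genes were not exceptions after stage 9: none of the 12 highest and none of the 12 lowest was called at stage 10 against 9.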

How the data were processed

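RNA was measured on 24 arrays, of which 3 seeds stage 9, 3 stage 8 and 3 stage 7 arrays carry these results. The deposited values are linear signal intensities that the authors computed by MAS5, a name taken from the submitters' processing notes, with no version in the sources used here. No detection calls come with them, and precision is limited by how few arrays there are. All 24 arrays entered limma 3.58.1 (R 4.3.3), with 1 mean per group, a variance trend and 16 residual degrees of freedom, on log2(signal + 7). The 64 control probe sets (AFFX) were left out of the 22810, and 16967 were tested, those above their array's 40th percentile on at least 3 arrays. An adjusted p is limma's after Benjamini-Hochberg over the 16967, errors are SE of log2 changes, and tables and figures were made with pandas 2.3.3 and matplotlib 3.10.9. On simulated data for seeds stage 9 against stage 7 with 16967 probe sets, 99% of 4-fold changes were called, 57% of 1.5-fold changes passed the adjusted p, and 3 unchanged probe sets were called.

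The annotation names exactly 1 gene for 13513 probe sets (13436 matched RefSeq), several for 503 and none for 8794, so 7575 tested probe sets could not be named. A gene with several probe sets is counted once, by its brightest. Of 33 lists 27 had a tested gene, and those for antioxidants, abscisic acid, raffinose sugars, aquaporins, ribosomal proteins and mitochondrial genes had none. Members and lists were chosen with earlier results of these data known. Genes named are the 12 highest and 12 lowest without overlap, 2 to 4 members of each list by size, the 3 highest and 3 lowest stage 8 positions in each direction among changes of at least 3, the 4 brightest at stage 9, and others said to be, or listed with families as, picked after their values were seen, to which further members of the LEA, storage, photosynthesis, plastid, chlorophyll and tubulin lists belong. The labels do not say whether title letters pair the arrays, and the main fit did not pair them. Deviations of same-letter arrays at stages 9 and 7 correlated at 0.018, 0.005 and 0.010 across probe sets. With 3 arrays a stage these values cannot settle whether same-letter arrays belong together. Promoter motifs were not analysed here, and 1 gene family counted by its stem is not reported here.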

Additional observations from a re-analysis of the deposited data

How the results depend on the processing

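The 1638 higher and 2633 lower calls moved by less than 1.5 times with no offset (2082 and 3120), no filter (1793 and 2668), quantile normalization (1677 and 2449), centring on the 75th percentile (1808 and 2415), only the seed arrays, only the 6 arrays, and no variance trend. With the title letter as a replicate block the paired fit gave the same counts, 1638 and 2633, and changed no call. Stages 9 and 7 both carry the letters A, B and C, so the block cannot alter a fitted change. Nor can using only the seed arrays or only the 6 arrays, dropping the variance trend or leaving out a stage 8 array. Under these settings a call could move only through its p-value, so their counts say little about stability. An offset 4 times larger gave 1112 higher and 1616 lower, a 4-fold threshold 390 and 699, and centring on the reference genes 2998 and 1716. Without single arrays of stage 9 or 7 the counts ran from 1648 to 1696 and from 2583 to 2689, without single arrays of stage 8 they were 1638 and 2633, and without the 3 arrays high on 25S (stage 7 C, stage 8 A and C), a choice made after seeing the data, they were 1695 and 2633. The median stage 8 position of higher and lower probe sets was 0.836 and 0.708 with no offset, 0.830 and 0.684 with reference centring and 0.873 and 0.696 at 4-fold. It was 0.762 for lower ones with the larger offset, and for higher ones 0.827 with no filter and 0.834 with the 75th percentile. Without single arrays it ran from 0.831 to 0.848 and from 0.721 to 0.737. On linear signals, added after seeing the data, it was 0.742 and 0.848. The cause of these shifts was not tested. Of the genes named, these changed sign. With quantile normalization AT2G28490 stood at -0.0098, AT1G03890 at -0.0063, AT3G01570 at -0.26, AT4G36700 at -0.44, SAG29 at -0.085, psaB at -0.18 and ALC at 0.0036. With the 75th percentile AAPT2 stood at 0.031 and FATB at 0.053. With reference centring AAPT2 stood at 0.30, FATB at 0.32, ALC at 0.27, ANX2 at 0.10, GSA1 at 0.25, SWEET11 at 0.013, TUA1 at 0.054 and rbcL at 0.11. Without single arrays FATB ran from -0.099 to 0.056. Signals near the bottom of an array limit the size of any change that starts or ends there, since the offset sets it, and changes of storage proteins and other very bright transcripts are limited by how the arrays are scaled.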

Other observations

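Enzymes of central metabolism outside the lists also changed, in genes that were chosen after their values were seen. Of 4 genes for subunits of ATP-citrate lyase, which makes acetyl-CoA in the cytosol, ACLA-2 fell by 2.91, ACLA-1 by 1.75 and ACLB-1 by 1.57, and ACLA-3 was not called at 0.41. ACLA-1 read 284, 279 and 299 at stage 9, against 935, 972 and 1045 at stage 7. GPDHp, annotated as a plastid glycerol-3-phosphate dehydrogenase, gave 136, 120.4 and 144 at stage 9, against 932, 966 and 799.8 at stage 7 and fell by 2.69 ± 0.10. The glycolytic gene TPI, for triose-phosphate isomerase, fell by 1.92, and cICDH, for cytosolic isocitrate dehydrogenase, by 1.95. PRK, for phosphoribulokinase of the Calvin cycle, read 49.7, 57.6 and 65.4 at stage 9, against 956, 946 and 973 at stage 7, a change of -3.91 ± 0.08 (limma adjusted p = 4.5e-22), and HPR, of photorespiration, fell by 2.23. ALDH11A3, a non-phosphorylating glyceraldehyde-3-phosphate dehydrogenase, gave 97.3, 120.1 and 100.1 at stage 9, against 1200.4, 1202 and 1189 at stage 7 and fell by 3.42. In the genes called here no array of stage 9 overlapped stage 7.

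Other enzymes rose, again as genes picked after their values were seen. PPDK, for pyruvate orthophosphate dikinase, which feeds sugar synthesis from pyruvate, read 1672, 1699 and 1621 at stage 9, against 434, 445 and 488 at stage 7 and rose by 1.85 ± 0.06. PDC2, for pyruvate decarboxylase of fermentation, gave 1094, 1014 and 1255 at stage 9, against 209.7, 249 and 207 at stage 7 and rose by 2.3. FDH, for formate dehydrogenase, rose by 1.65, NDB2, an alternative NADH dehydrogenase of mitochondria, by 2.25, and PAHX, for a phytanoyl-CoA hydroxylase, by 2.62. SDP1-LIKE, a relative of the lipase gene SDP1, rose by 1.11 among weak signals, and was 0.87 and not called without stage 7 replicate C. APG8H, whose synonym is ATG8I, rose by 1.18 beside ATG8H, and was 0.97 and not called with quantile normalization. Among small secreted proteins PDF1.2b and PDF2.1, both plant defensins, rose by 2.74 and 1.45, the second at 0.51 without a call under quantile normalization, and ARPN, a plantacyanin, rose by 3.39, at 2504, 2619 and 2206 at stage 9, against 210.4, 211 and 259 at stage 7. SKU5, a cell wall protein of root growth, read 9.75, 16.7 and 8.97 at stage 9, against 217, 206 and 199 at stage 7 and fell by 3.53 ± 0.25.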
